A study of Oryctolagus cuniculus with 20 samples.

Results

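The 30 genes described here are nuclear genes of oxidative phosphorylation, measured in the tricuspid valves of rabbits given serotonin, pergolide or dexfenfluramine. Their symbols start with NDUF, UQCR, COX, ATP5 or SDH, and no symbol starting with CYC1 had an identifier in the count table. They are 30 of the 23669 genes in that table. They were selected on measured values: a symbol had to stand in the study's list of genes called different from non-treated valves in these same animals, with an identifier found in the count table as written. NDUFB3, NDUFB6, UQCRC1 and the genes of the mitochondrial genome were left out. Because the comparisons with non-treated valves chose the genes, every value against non-treated valves is a description and no test of the group. Comparisons between treatments use the same treated valves and are read in the same way. Nuclear genes of the pathway that the study did not call are absent from the 30.

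The study asked what long exposure to serotonin and to drugs that act on its receptors does to the heart valves. It used female New Zealand white rabbits, 8 weeks old at the start, in 4 groups with 5 tricuspid valves each. One group was non-treated, and the others received in their drinking water, per kg of body weight each day for 16 weeks, 80 mg of serotonin, 0.5 mg of pergolide or 20 mg of dexfenfluramine; another passage of the study gives a different dexfenfluramine dose. Pergolide is a dopamine agonist that also activates serotonin receptors, and dexfenfluramine is an appetite suppressant that releases serotonin. RNA depleted of ribosomal RNA was sequenced, and the deposited table holds read counts per gene, with a total of 3247091 to 5921025 counts per valve.

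Oxidative phosphorylation makes most of the ATP of working heart muscle. In the inner mitochondrial membrane, complexes I to IV pass electrons from NADH and succinate to oxygen. Complexes I, III and IV pump protons, and complex V, the ATP synthase, lets the protons flow back and makes ATP. Most subunits are encoded in the nucleus and imported, while a few core subunits come from the mitochondrial genome. Assembly factors put the subunits together and insert heme, copper and iron-sulfur clusters without staying in the finished complex. A heart valve leaflet is mainly connective tissue made by valvular interstitial cells, and cardiac muscle lies at its base, so a dissected valve can hold both.

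By role, 12 of the 30 genes encode subunits of complex I, 3 of complex III, 2 of complex IV and 6 of complex V. The other 7 are 6 assembly factors and ATP5S, a coupling factor that is not a subunit. None of the 30 is a subunit of complex II, which is represented by its assembly factor SDHAF4 alone. All 30 passed the filter on low counts. Mean counts per valve went from 10.3 reads for SDHAF4 to 1248 reads for ATP5F1. The sources do not say how reads that map to several places were handled, and many subunit genes have pseudogenes, so reads from such copies cannot be told apart from those of the gene.

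Levels are given in CPM, the counts of a gene relative to the total of its valve after scaling by the trimmed mean of M values (TMM), and the score of a group of genes is the mean of their log2 CPM in a valve. A gene is called lower or higher where the quasi-likelihood test of edgeR, adjusted over 8683 tested genes, was below 0.05. Changes are log2 fold changes, with standard errors (SE), over 5 valves a group. Gene lengths were not at hand, so levels are compared between valves and not between genes.

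A few valves lay lower than the others of their groups. Over the 30 genes the score was 5.65, 5.40, 4.63, 5.71 and 5.27 in non-treated valves 1 to 5 and 4.86, 5.69, 4.91, 5.48 and 5.01 in serotonin valves. In pergolide valves it was 5.27, 5.33, 5.26, 4.71 and 4.63, and in dexfenfluramine valves 4.74, 4.59, 3.87, 4.85 and 5.11. Non-treated replicate 3 was the lowest non-treated valve and dexfenfluramine replicate 3 the lowest of all 20, while pergolide replicates 4 and 5 lay below the other pergolide valves. The group means were 5.33 ± 0.43 (SD) for non-treated, 5.19 ± 0.374 for serotonin, 5.04 ± 0.341 for pergolide and 4.63 ± 0.465 for dexfenfluramine valves, and the ranges of all 4 groups overlapped. In such bulk samples, fewer cells of a type that expresses these genes and less of their RNA per cell cannot be told apart.

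**Figure D1:**
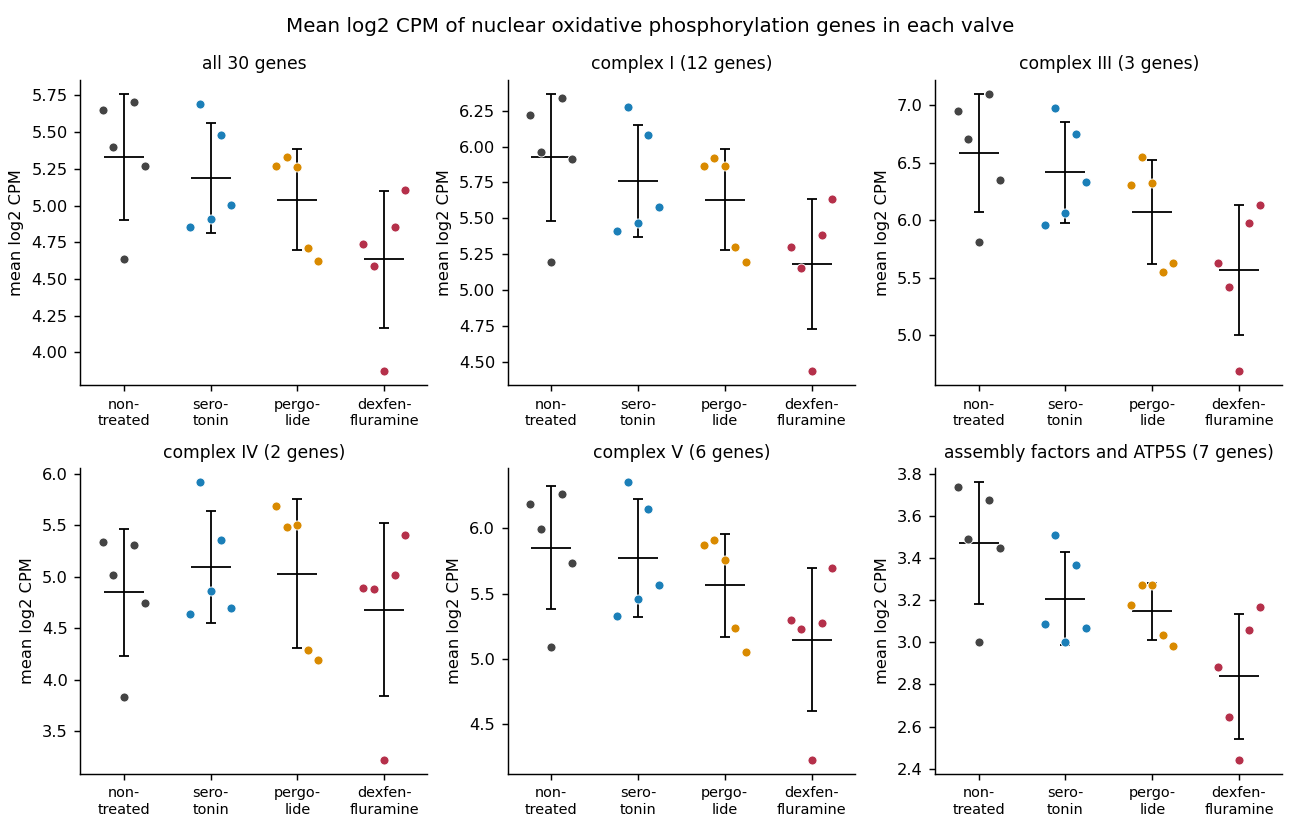
Score of each complex (mean log2 CPM of its genes, vertical axis) in every valve of the 4 groups; points are valves and lines are group means with SD. Dexfenfluramine replicate 3 is the lowest point in every panel, at 3.87 for all 30 genes, and the groups overlap; these scores are on the TMM scale, and with total counts the median change of the 30 genes turned to 0.14 for pergolide, where all genes shifted to 0.46, and relative to all genes it stayed at -0.32.

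Against non-treated valves the 30 genes lay mostly lower in all 3 treatments, least after serotonin and most after dexfenfluramine. After serotonin 0 were called lower by edgeR, where 0.15% of all tested genes were, and 0 were called higher, where 1.04% were; 1 gene, COX10, had an unadjusted p under 0.05, and DESeq2 called 0. After pergolide 4 were called lower, beside 12.7% of tested genes, and 1 was called higher, beside 12.1%. After dexfenfluramine 15 were called lower, beside 15.4% of tested genes, and 0 higher, beside 13.5%. At an unadjusted p under 0.05 the drug counts, in either direction, were 11 after pergolide and 25 after dexfenfluramine, and DESeq2 called 5 and 19 lower. The 15 after dexfenfluramine became 3 with scaling by total counts, 1 with a cardiomyocyte marker score as covariate and 1 with surrogate variables. The 4 after pergolide became 0, 1 and 1 in the same order. Nothing is read from these counts and shares, since these comparisons chose the genes.

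The median log2 fold change of the 30 was -0.25 after serotonin, -0.34 after pergolide and -0.72 after dexfenfluramine, with 21, 26 and 27 of the 30 below 0. With 1 valve left out at a time these medians ran from -0.34 (non-treated replicate 3 out) to -0.09 (non-treated replicate 1 out), from -0.48 to -0.25 and from -0.85 to -0.54. The medians over all tested genes were 0.02, 0.02 and 0.03. The 3 comparisons share the non-treated valves. Dexfenfluramine had the lowest group mean for 26 of the genes and non-treated the highest for 19. Serotonin means were above non-treated means for 9 genes, namely NDUFA2, NDUFS5, UQCRH, COX5B, NDUFA4, ATP5I, ATP5J, ATP5J2 and COX17.

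The groups were also compared valve by valve. After serotonin 0 had every treated valve below every non-treated valve, as 0.61% of tested genes did, and 0 had every treated valve above, as 2.05% did. After pergolide 2 genes had all valves below, beside 8.34% of tested genes, and 1 had all above, beside 7.95%. After dexfenfluramine the counts were 2 below, beside 8.71%, and 1 above, beside 8.26%. NDUFAF1 and SDHAF4 were the genes below, and ATP5S the gene above, with both drugs, and nothing is read from the shares.

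**Figure D2:**
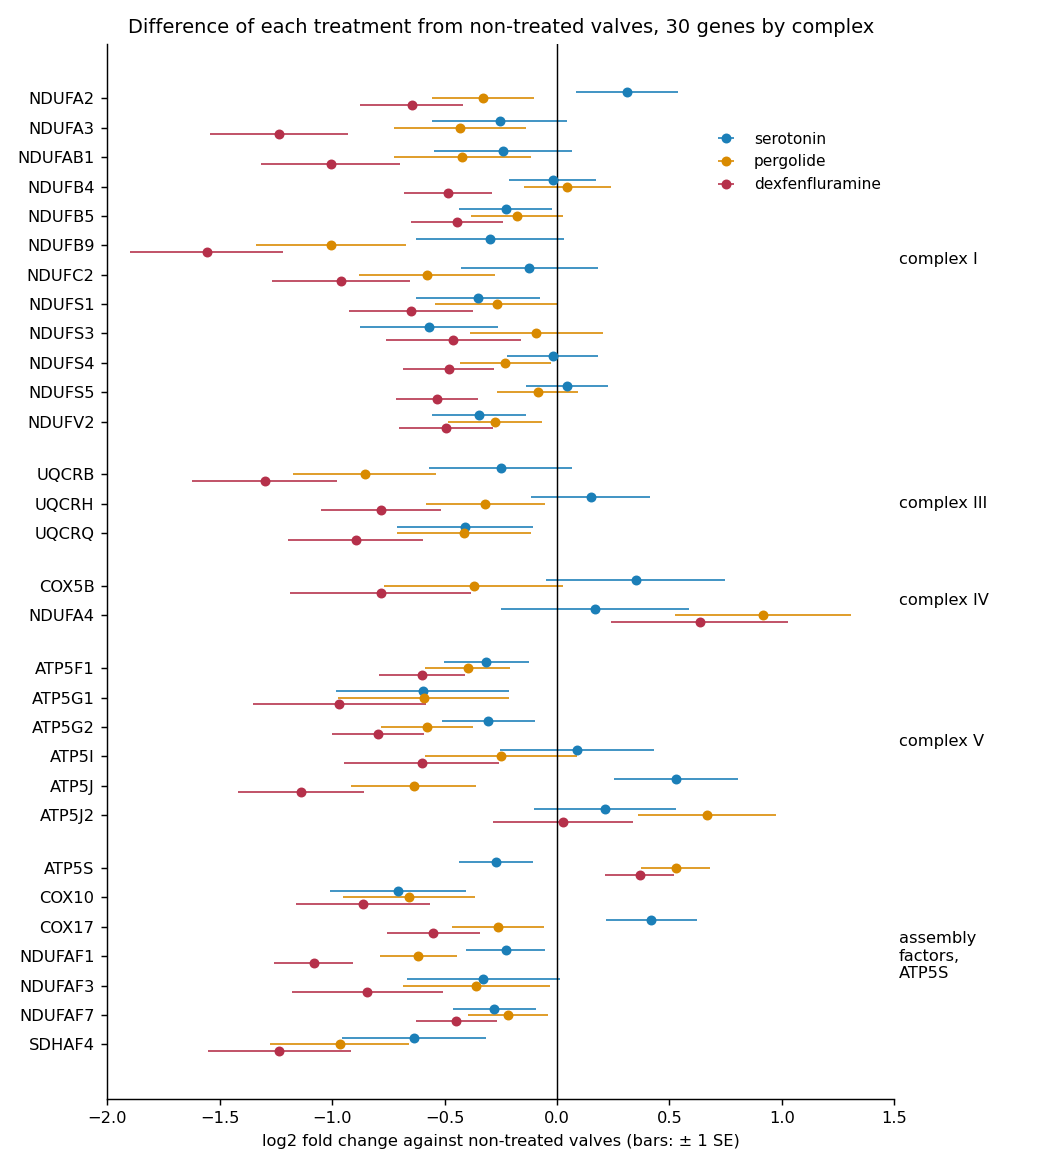
Log2 fold change against non-treated valves (horizontal axis, bars are SE) for each of the 30 genes, grouped by complex, with the 3 treatments in separate colours. Dexfenfluramine values run from -1.56 for NDUFB9 to 0.63 for NDUFA4 with TMM scaling; with scaling by total counts the median of the 30 turned to 0.14 for pergolide and stood at -0.01 for dexfenfluramine, and relative to the medians of all genes they stayed at -0.32 and -0.71.

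Of all counts, mitochondrially encoded genes took 53.9 ± 9.55% (SD, n = 5) in non-treated, 51.5 ± 6.81% in serotonin, 42.8 ± 4.00% in pergolide and 36.8 ± 7.50% in dexfenfluramine valves. The 30 genes took 0.163 ± 0.0100%, 0.163 ± 0.0137%, 0.177 ± 0.0256% and 0.158 ± 0.0225% of all counts in the same order, and the ranges of the groups overlapped. Of the counts that were not mitochondrially encoded they took 0.366 ± 0.0768%, 0.343 ± 0.0726%, 0.313 ± 0.0622% and 0.256 ± 0.0599%. Dexfenfluramine replicate 3 was lowest in both shares, at 0.121% and 0.161%, and had the smallest share of mitochondrially encoded counts, 25.0%.

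With scaling by total counts in place of TMM, the median log2 fold change of the 30 turned to 0.14 after pergolide and stood at -0.09 after serotonin and -0.01 after dexfenfluramine, with 0, 0 and 3 genes called lower and 0, 4 and 3 called higher in the order serotonin, pergolide, dexfenfluramine. The number of all tested genes called after serotonin and dexfenfluramine also moved with this scaling, and nothing is read from the counts. On that scale the median of all tested genes was itself 0.13, 0.46 and 0.70. Relative to the median of all genes the 30 stood at -0.22, -0.32 and -0.71 after the 3 treatments with total counts, and at -0.26, -0.37 and -0.75 with TMM. The TMM factors behind the main values ranged from 0.584 in non-treated replicate 4 to 1.72 in dexfenfluramine replicate 3. Leaving the mitochondrially encoded genes out before scaling gave 5 and 17 genes called lower after pergolide and dexfenfluramine, where the main values were 4 and 15.

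**Figure D3:**
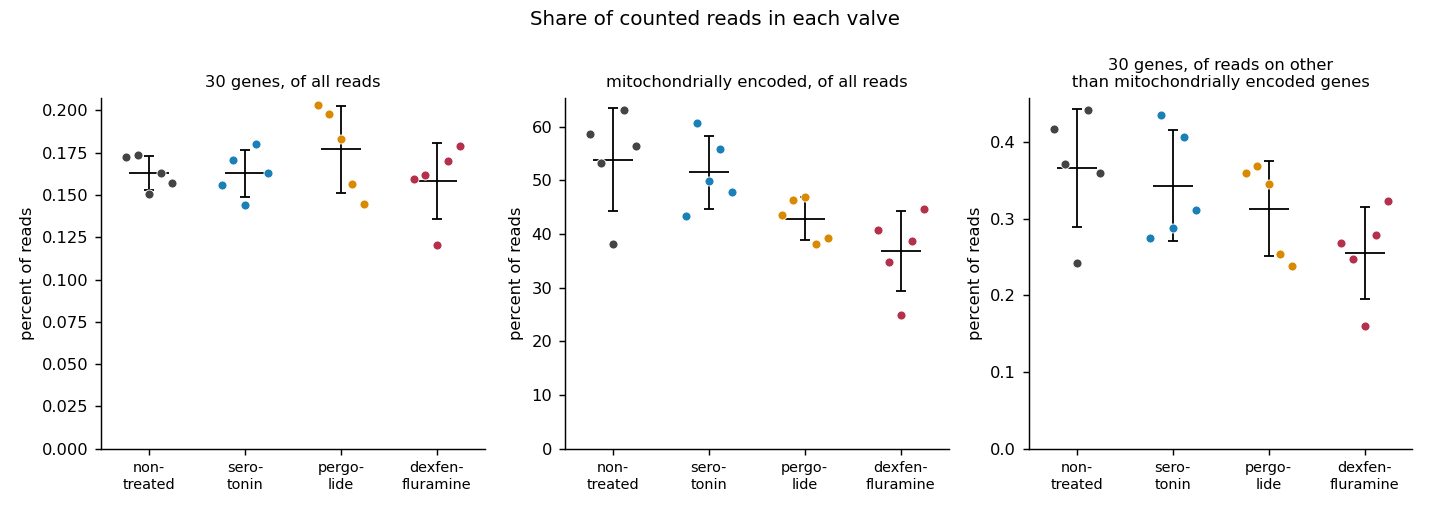
Percent of counts (vertical axis) in every valve. Panels show the 30 genes among all counts, the mitochondrially encoded genes among all counts, and the 30 genes among counts not mitochondrially encoded. Points are valves and lines are group means with SD. The first share stays between 0.121% and 0.203% in the 4 groups. The mean of the mitochondrially encoded share goes from 53.9% in non-treated to 36.8% in dexfenfluramine valves. The medians of the 30 genes differ in direction or size between total-count and TMM scaling.

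The counts also moved with single valves. Without non-treated replicate 3, 24 genes were called lower after dexfenfluramine and 7 after pergolide. The dexfenfluramine count was 9 when non-treated replicate 1 or dexfenfluramine replicate 2 was left out and 8 when non-treated replicate 4 or dexfenfluramine replicate 3 was. The pergolide count was 1 without non-treated replicate 4 or pergolide replicate 4, and 2 without non-treated replicates 1 or 5 or pergolide replicate 5, each left out alone. With 1 valve left out at a time, 2040 to 2805 of all tested genes were called after dexfenfluramine, in either direction. After pergolide this number ran from 1772 to 2285. With both low valves left out (non-treated replicate 3 and dexfenfluramine replicate 3), 3 genes were called lower after serotonin, 12 after pergolide and 20 after dexfenfluramine, with medians of -0.35, -0.49 and -0.67. Nothing is read from the counts in these fits, since the share of all tested genes called lower is not set beside them.

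Complex I takes electrons from NADH. All 12 of its genes had dexfenfluramine values below 0, from -1.56 to -0.44 with a median of -0.59, and 6 were called lower: NDUFB9, NDUFA3, NDUFAB1, NDUFC2, NDUFA2 and NDUFS5. After pergolide 1 was called, NDUFB9, and the median was -0.27. After serotonin 0 of the 12 were called by edgeR, 0 by DESeq2 and 0 at an unadjusted p under 0.05, and the median was -0.23. With scaling by total counts the dexfenfluramine value of NDUFA2 turned to 0.04 and that of NDUFS5 to 0.16.

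NDUFS1 (ENSOCUG00000012368) is the largest core subunit of complex I and carries iron-sulfur clusters in the arm that receives electrons. In non-treated valves it stood at 215, 201, 106, 267 and 170.0 CPM, and in serotonin valves at 96.0, 170, 136, 213 and 137 CPM. In pergolide valves it stood at 197, 189, 189, 124 and 97.1 CPM, and in dexfenfluramine valves at 152, 118, 54.7, 122 and 163 CPM. All groups overlapped, with non-treated replicate 3 and dexfenfluramine replicate 3 the lowest of theirs. The log2 fold changes were -0.35 ± 0.28 (SE), -0.27 ± 0.27 and -0.65 ± 0.28 after serotonin, pergolide and dexfenfluramine, and none was called.

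NDUFB9 (ENSOCUG00000025074), an accessory subunit of the membrane arm, had the lowest dexfenfluramine value of the 30. Non-treated valves held 392, 146, 81.3, 279 and 248 CPM, and serotonin valves 131, 236, 133, 284 and 146 CPM. Pergolide valves held 121, 148, 133, 82.0 and 85.0 CPM, and dexfenfluramine valves 67.3, 84.1, 40.5, 93.9 and 102 CPM. No drug valve lay above 148 CPM, dexfenfluramine replicates 1 and 3 lay below all non-treated valves, the other drug valves lay in the lower part of the non-treated range, and every dexfenfluramine valve lay below every serotonin valve. NDUFB9 fell after pergolide, at -1.0 ± 0.33, and after dexfenfluramine, at -1.56 ± 0.34, and serotonin stood at -0.30 ± 0.33. Its dexfenfluramine call held without any single valve, and its pergolide call was lost without 6 of the 10 valves compared, left out one at a time.

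NDUFA3, an accessory subunit of the membrane arm, fell after dexfenfluramine at -1.24 ± 0.31 and had group means of 13.3, 11, 9.67 and 5.46 CPM in non-treated, serotonin, pergolide and dexfenfluramine valves. NDUFAB1, the mitochondrial acyl carrier protein that is also bound into complex I, fell after dexfenfluramine at -1.01 ± 0.31, a call lost without non-treated replicate 1. NDUFC2, an accessory subunit of the membrane arm, fell after dexfenfluramine at -0.96 ± 0.31, a call lost in 4 of 10 fits with 1 valve left out. NDUFA2 and NDUFS5, other accessory subunits, fell after dexfenfluramine at -0.65 ± 0.23 and -0.53 ± 0.18, calls lost in 6 and 4 of those 10 fits. NDUFA2 stood just inside the threshold in that comparison and COX17, at -0.55 ± 0.21, just outside it.

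The core subunits NDUFS3 and NDUFV2, the latter with an iron-sulfur cluster, and the accessory subunits NDUFS4, NDUFB4 and NDUFB5 were not called by edgeR after any treatment, and DESeq2 called NDUFB4 lower after dexfenfluramine. Their dexfenfluramine values lay between -0.49 for NDUFV2 and -0.44 for NDUFB5. NDUFS3 had its lowest value after serotonin, -0.57 ± 0.31, beside -0.09 ± 0.30 after pergolide and -0.46 ± 0.30 after dexfenfluramine. NDUFB4 stood at -0.02 ± 0.19 after serotonin and 0.05 ± 0.19 after pergolide, and NDUFS4 at -0.02 ± 0.20 and -0.23 ± 0.20.

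Complex II is represented by SDHAF4 (ENSOCUG00000025062), which helps the flavin-bearing subunit join its partner. It had the fewest reads of the 30. SDHAF4, ATP5J and NDUFAF1 were chosen for values by valve after the values were seen. Non-treated valves held 2.89, 2.98, 3.51, 4.71 and 3.91 CPM, and serotonin valves 2.56, 3.48, 1.46, 2.95 and 1.12 CPM. Pergolide valves held 1.92, 2.39, 1.26, 1.41 and 2.14 CPM, and dexfenfluramine valves 1.72, 0.517, 1.44, 1.68 and 2.24 CPM. Every drug valve lay below every non-treated valve, and serotonin valves overlapped both. SDHAF4 fell after pergolide, at -0.97 ± 0.31, and after dexfenfluramine, at -1.23 ± 0.32, and stood at -0.64 ± 0.32 after serotonin. The pergolide call was lost without non-treated replicates 4 or 5 or pergolide replicates 3 or 4, and the dexfenfluramine call held without any single valve.

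Complex III passes electrons from ubiquinol to cytochrome c. All 3 of its genes were called lower after dexfenfluramine, with a median of -0.90, and 0 of the 3 after pergolide or serotonin by edgeR, with medians of -0.41 and -0.25. At an unadjusted p under 0.05 the counts were 1 after pergolide and 0 after serotonin, and DESeq2 called 1, UQCRB, and 0. UQCRB (ENSOCUG00000008113) is the accessory subunit that borders the site where ubiquinone binds. Its levels were 215, 150.1, 77.1, 195 and 119 CPM in non-treated and 78.3, 198, 93.8, 161 and 103 CPM in serotonin valves. They were 84.9, 115, 100.3, 58.4 and 57.5 CPM in pergolide and 66.7, 54.3, 24.8, 70.5 and 89.3 CPM in dexfenfluramine valves. Non-treated replicate 3 lay inside the drug ranges, and the other non-treated valves lay above all drug valves. UQCRB fell after dexfenfluramine at -1.30 ± 0.32 and stood at -0.85 ± 0.32 after pergolide and -0.25 ± 0.32 after serotonin.

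UQCRH, the hinge protein near cytochrome c1, fell after dexfenfluramine at -0.78 ± 0.27 and stood at 0.15 ± 0.26 after serotonin and -0.32 ± 0.26 after pergolide. UQCRQ, a small accessory subunit next to cytochrome b, fell after dexfenfluramine at -0.90 ± 0.30 and stood at -0.41 ± 0.30 after serotonin and after pergolide. Of the 3, the UQCRB call held without any single valve, and those of UQCRH and UQCRQ were lost without non-treated replicates 1 or 4 or dexfenfluramine replicates 1, 2 or 3, and for UQCRQ also without non-treated replicate 2.

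Complex IV, cytochrome c oxidase, hands electrons to oxygen. Of its 2 genes 0 were called against non-treated valves by edgeR or DESeq2, and 1, NDUFA4 after pergolide, had an unadjusted p under 0.05. Their drug values differed in sign. COX5B (ENSOCUG00000017085), a zinc-binding accessory subunit, stood at 129, 114, 65.8, 143 and 72.3 CPM in non-treated and at 91.6, 229, 83.6, 147 and 116 CPM in serotonin valves. It stood at 121, 127, 88.3, 37.5 and 29.7 CPM in pergolide and at 67.3, 61.0, 19.4, 64.1 and 90.7 CPM in dexfenfluramine valves. Pergolide replicates 4 and 5 were far below pergolide replicates 1 to 3, serotonin replicate 2 was the highest valve, and all groups overlapped. Values were 0.35 ± 0.40, -0.37 ± 0.40 and -0.78 ± 0.40 after serotonin, pergolide and dexfenfluramine.

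NDUFA4 (ENSOCUG00000014194) was named for complex I and was later found in complex IV. It stood at 12.3, 8.67, 2.63, 10.6 and 9.43 CPM in non-treated and at 6.29, 15.5, 9.64, 11 and 5.34 CPM in serotonin valves. Pergolide valves held 21.5, 15.2, 22.8, 9.67 and 10.7 CPM, and dexfenfluramine valves 12.5, 13.6, 3.96, 15.8 and 19.2 CPM. The drug groups reached higher than non-treated valves and overlapped them, with replicate 3 the lowest in the non-treated and dexfenfluramine groups. NDUFA4 had the highest drug values of the 30, 0.92 ± 0.39 after pergolide and 0.63 ± 0.39 after dexfenfluramine, beside 0.17 ± 0.42 after serotonin.

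**Figure D4:**
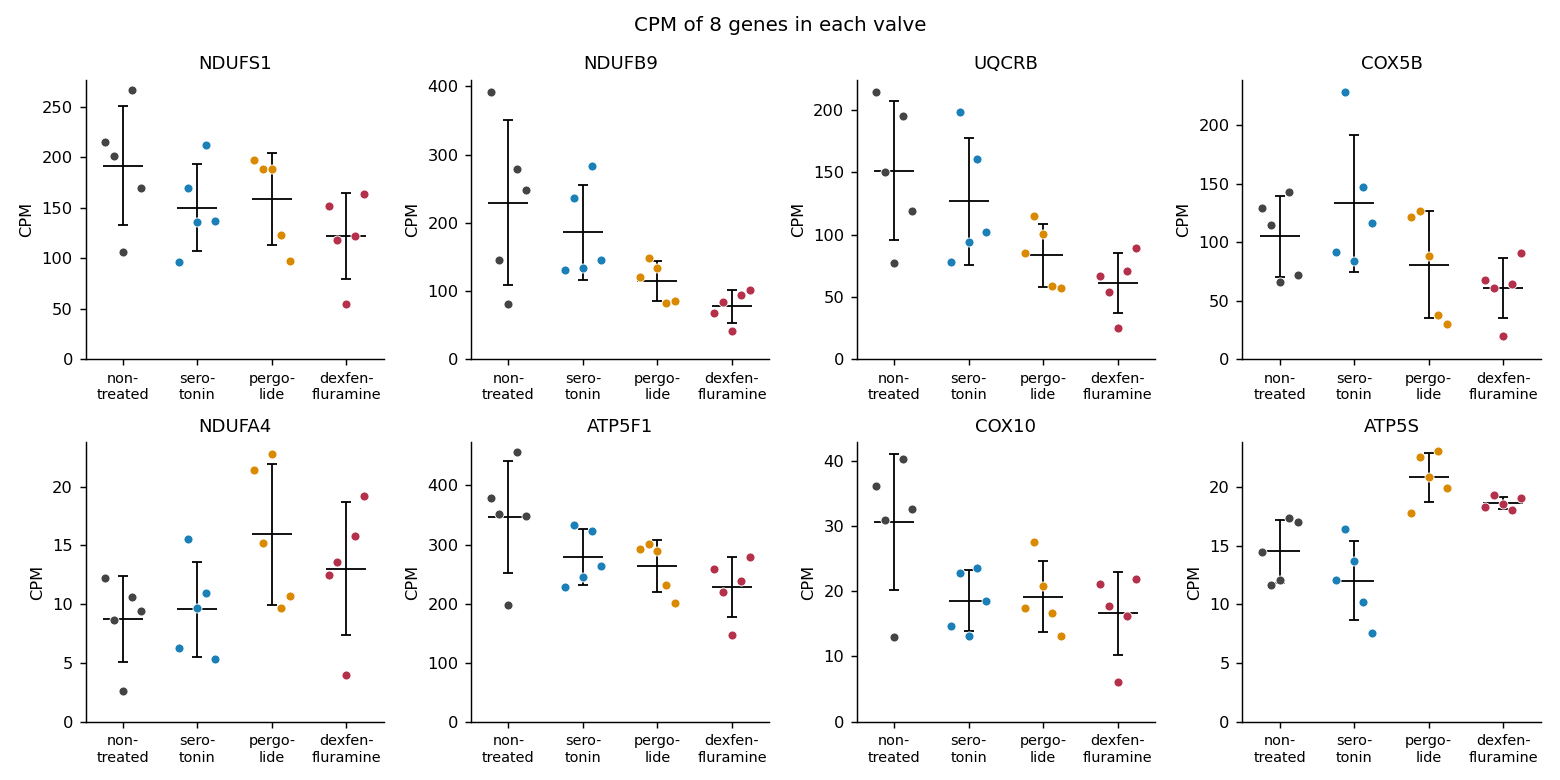
CPM (vertical axis, from 0) in every valve for 8 genes picked by rank within their complex or by their change, with the 4 groups side by side; points are valves, lines are group means and bars are SD. ATP5S has every pergolide and dexfenfluramine valve above the non-treated valves, the lowest being 17.8 CPM against at most 17.4 CPM; values carry TMM scaling, and with total counts the drug medians of the 30 genes were 0.14 and -0.01, which relative to all genes is -0.32 and -0.71.

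Complex V makes ATP. Of its 6 genes, 3 were called lower after dexfenfluramine (ATP5J, ATP5G2 and ATP5F1), 1 after pergolide (ATP5G2) and 0 after serotonin by edgeR, by DESeq2 and at an unadjusted p under 0.05, with medians of -0.70, -0.49 and -0.11. ATP5F1 (ENSOCUG00000007809) is subunit b, part of the stalk that holds the catalytic head still. Non-treated valves held 380, 352, 197, 457 and 348 CPM, and serotonin valves 228, 333, 246, 323 and 264 CPM. Pergolide valves held 292, 301, 289, 232 and 201 CPM, and dexfenfluramine valves 258, 219, 147, 239 and 279 CPM. Every treated valve lay below the non-treated valves other than replicate 3, which lay below all serotonin and pergolide valves and inside the dexfenfluramine range. ATP5F1 fell after dexfenfluramine at -0.60 ± 0.19 with TMM scaling, and with scaling by total counts this turned to 0.12; the call was lost without non-treated replicate 4 or dexfenfluramine replicate 3. It stood at -0.31 ± 0.19 after serotonin and -0.40 ± 0.19 after pergolide.

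ATP5J (ENSOCUG00000006681) is coupling factor 6, a part of the stalk. Its levels were 98.8, 74.5, 47.1, 72.7 and 65.4 CPM in non-treated and 83.6, 154, 65.5, 133 and 78.4 CPM in serotonin valves. They were 59.2, 65.1, 40.5, 31.7 and 32.6 CPM in pergolide and 27.1, 35.7, 16.7, 34.5 and 47.1 CPM in dexfenfluramine valves. Serotonin valves lay above all valves of both drugs, with the lowest serotonin valve next to the highest pergolide valve, and non-treated valves reached into the pergolide range. ATP5J fell after dexfenfluramine at -1.14 ± 0.28 and stood at 0.53 ± 0.27 after serotonin and -0.64 ± 0.28 after pergolide.

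ATP5G1 and ATP5G2 encode the same mature subunit c of the rotor ring. ATP5G2 fell after pergolide at -0.58 ± 0.20 and after dexfenfluramine at -0.80 ± 0.21, with group means of 48.0, 38.6, 32.0 and 27.4 CPM in non-treated, serotonin, pergolide and dexfenfluramine valves. Its pergolide call was lost without non-treated replicates 1, 2 or 4 or pergolide replicates 4 or 5. ATP5G1 was not called by edgeR, was called lower by DESeq2 after dexfenfluramine, and stood at -0.60 ± 0.39, -0.59 ± 0.38 and -0.97 ± 0.39. Neither tool called ATP5I, subunit e, at 0.09 ± 0.34, -0.25 ± 0.34 and -0.60 ± 0.34, or ATP5J2, subunit f, at 0.21 ± 0.32, 0.67 ± 0.31 and 0.03 ± 0.31.

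Among the 6 assembly factors and ATP5S, 3 genes were called lower after dexfenfluramine (NDUFAF1, SDHAF4 and COX10), 2 were called lower and 1 higher after pergolide, and 0 were called after serotonin by edgeR or DESeq2, with 1, COX10, at an unadjusted p under 0.05. The medians were -0.84, -0.36 and -0.28 for dexfenfluramine, pergolide and serotonin. NDUFAF1 (ENSOCUG00000004206) helps assemble the membrane arm of complex I. It stood at 28.9, 22, 18.8, 25.3 and 24.4 CPM in non-treated and at 17.7, 23.4, 17.8, 21.2 and 21.1 CPM in serotonin valves. It stood at 18.4, 17.3, 17.5, 12.1 and 12.1 CPM in pergolide and at 13.8, 10.5, 6.66, 11.4 and 13.6 CPM in dexfenfluramine valves. Every drug valve lay below every non-treated valve, by a narrow margin for pergolide, and every dexfenfluramine valve lay below every serotonin valve. NDUFAF1 fell after pergolide at -0.62 ± 0.17 and after dexfenfluramine at -1.08 ± 0.18. Its calls held without any single valve, and the dexfenfluramine call was the only 1 of the 15 kept in every other setting tried, scaling by total counts included.

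COX10 (ENSOCUG00000012422) makes the heme O that is turned into the heme A of complex IV. Its levels were 36.1, 30.9, 13, 40.3 and 32.7 CPM in non-treated and 14.7, 22.8, 13.2, 23.6 and 18.5 CPM in serotonin valves. They were 17.4, 27.5, 20.9, 16.7 and 13.2 CPM in pergolide and 21.1, 17.8, 6.12, 16.2 and 21.8 CPM in dexfenfluramine valves. The treated valves lay below all non-treated valves except replicate 3, which was lower than every other valve save dexfenfluramine replicate 3. COX10 had the lowest serotonin value of the 30, -0.71 ± 0.30, and -0.66 ± 0.29 after pergolide; it fell after dexfenfluramine at -0.86 ± 0.30, a call lost when any 1 of 7 valves was left out.

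ATP5S (ENSOCUG00000003348) was the 1 gene called higher than in non-treated valves. Non-treated valves held 14.4, 11.7, 12.1, 17.4 and 17.0 CPM, and serotonin valves 12.1, 16.5, 13.7, 10.2 and 7.58 CPM. Pergolide valves held 17.8, 22.6, 20.9, 23.0 and 19.9 CPM, and dexfenfluramine valves 18.3, 19.3, 18.5, 18.1 and 19.1 CPM. The drug valves lay above every non-treated and serotonin valve, and dexfenfluramine replicate 3, low for most of the genes, lay among its group. ATP5S rose after pergolide at 0.53 ± 0.15, a call lost without non-treated replicate 2, and stood at 0.37 ± 0.15 after dexfenfluramine and -0.27 ± 0.16 after serotonin.

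COX17, the copper chaperone of complex IV, had group means of 10.5, 13.8, 8.55 and 6.98 CPM in non-treated, serotonin, pergolide and dexfenfluramine valves and was not called against non-treated valves by edgeR, while DESeq2 called it lower after dexfenfluramine. NDUFAF3 and NDUFAF7, early assembly factors of complex I, the latter a methyltransferase, were not called by edgeR after any treatment, and DESeq2 called NDUFAF3 lower after dexfenfluramine. NDUFAF3 stood at -0.33 ± 0.34, -0.36 ± 0.33 and -0.84 ± 0.34 and NDUFAF7 at -0.28 ± 0.18, -0.22 ± 0.18 and -0.45 ± 0.18 after serotonin, pergolide and dexfenfluramine.

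The drug valves were also compared with serotonin valves directly. After pergolide 3 of the 30 were called lower than after serotonin (ATP5J, COX17 and NDUFA2), beside 15.1% of tested genes, and 1, ATP5S, was called higher, beside 12.4%. After dexfenfluramine 11 were called lower than after serotonin, beside 16.4% of tested genes, and 1, ATP5S, was called higher, beside 13.9%. The 11 were ATP5J, NDUFB9, COX5B, UQCRB, NDUFA3, COX17, NDUFA2, UQCRH, NDUFAF1, NDUFC2 and NDUFS5. The medians of the 30 were -0.15 and -0.50, where those of all tested genes were both 0.03. With 1 valve left out they ran from -0.24 to 0.004 and from -0.64 to -0.40, and the pergolide median lay at 0.004 without serotonin replicate 2. The 2 comparisons share the serotonin valves.

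ATP5J differed most, at -1.17 ± 0.28 for pergolide and -1.67 ± 0.28 for dexfenfluramine against serotonin. COX17 stood at -0.68 ± 0.20 and -0.97 ± 0.20 in these comparisons, and every valve of both drugs lay below every serotonin valve. ATP5S stood at 0.80 ± 0.16 and 0.64 ± 0.16, with every drug valve above every serotonin valve. The dexfenfluramine count was 6 without serotonin replicate 2 and 7 without dexfenfluramine replicate 3. With scaling by total counts the medians turned to 0.20 and 0.02, and 1 and 2 genes were called lower, against medians of all genes of 0.35 and 0.57. Nothing is read from these counts, which are not set beside the shares of all tested genes in the same fits.

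Between the drugs, on the TMM scale, all 30 genes had lower values with dexfenfluramine than with pergolide. They ran from -0.81 for NDUFA3 to -0.16 for ATP5S, with a median of -0.38 and a median SE of 0.287. The median was -0.20 without dexfenfluramine replicate 3 and -0.52 without dexfenfluramine replicate 5, the extremes when 1 valve was left out. The direction is given for that scale only. Of all counts, without TMM, the 30 took 0.177 ± 0.0256% (SD) in pergolide and 0.158 ± 0.0225% in dexfenfluramine valves. Relative to total counts ATP5S was not lower with dexfenfluramine. By edgeR 0 were called, as was 0% of all tested genes; 5 of the 30 and 613 genes in all had an unadjusted p under 0.05. DESeq2 called 0 of the 30 and 4 genes in all. The drugs were given at different doses, so the values are set side by side and give no comparison of the compounds themselves.

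The genes varied together from valve to valve within the groups. Over deviations from group means in the 20 valves, which share tissue, dissection and library, the median correlation of a pair was 0.80 (Pearson r, 435 pairs), and 430 pairs were above 0. The correlation of a gene with the mean of the other genes had a median of 0.91 and was highest for UQCRB, 0.98. It was lowest for ATP5S at 0.23, SDHAF4 at 0.32, NDUFAF3 at 0.49 and NDUFAF7 at 0.53. The median correlation of all tested genes with the score of the 30 was -0.02.

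By the same measure, the 5 genes most like the score, among 3380 genes with a symbol outside the 30 and the mitochondrial genome, were PDHA1 at 0.99, MRPS36 at 0.99, PDHB at 0.98, NDUFB6 at 0.97 and MFN1 at 0.97. PDHA1 and PDHB are subunits of pyruvate dehydrogenase, MRPS36 is a subunit of the 2-oxoglutarate dehydrogenase complex, and MFN1 fuses mitochondria. NDUFB6, a subunit of complex I, is one of the genes the choice had left out.

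Other lists of the pathway were taken from the study's gene list too, so their directions are not independent of the calls against non-treated valves. Of 19 genes of pyruvate dehydrogenase and the citric acid cycle, 10 had a symbol there, and 6 fell after dexfenfluramine: PDHA1 at -1.07, PDHB at -0.74, DLD at -0.74, DLAT at -0.72, DLST at -0.71 and PDHX at -0.66. After pergolide and serotonin 0 of the 10 were called by edgeR or DESeq2, 2 and 2 had an unadjusted p under 0.05, and the medians were -0.32 and -0.42. SUCLA2, a subunit of succinyl-CoA synthetase, was higher after pergolide than after serotonin, at 0.79, and PDHA1 and DLD were lower after dexfenfluramine than after serotonin, at -0.81 and -0.72. The score of this list correlated with that of the 30 at 0.97 over the 20 valves.

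Of further genes with the same prefixes whose identifiers in the study's list matched the count table only after a surplus or missing zero was repaired, 4 are described. NDUFC1, a complex I subunit, and COX6C and COX7B, of complex IV, fell after dexfenfluramine at -0.82, -1.0 and -1.21. ATP5B, the catalytic subunit of complex V, was not called against non-treated valves and stood at -0.10 after dexfenfluramine and 0.34 after pergolide. With these 4 added, 18 of 34 genes were called lower after dexfenfluramine, beside 15.4% of tested genes, and 4 after pergolide, beside 12.7%. With the 23 subunits alone the counts were 12 and 2. Nothing is read from these counts, since the study's calls chose the genes.

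Of 24 genes for the electron carrier and other assembly and expression factors, 8 had a symbol. SCO1, a copper chaperone of complex IV, fell after pergolide at -0.92 and after dexfenfluramine at -1.23. COA7, COA6 and TFB2M, the last a mitochondrial transcription factor, fell after dexfenfluramine at -1.16, -0.84 and -0.86. CYCS, cytochrome c itself, stood at -0.90 after dexfenfluramine, called by DESeq2 and not by edgeR. Against serotonin valves, pergolide valves were called higher for COA3 at 1.12 and LRPPRC at 0.42 and lower for SCO1 at -0.84, and dexfenfluramine valves lower for SCO1 at -1.15.

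Of 12 regulators of mitochondrial genes, 5 had a symbol, and 3 were called after dexfenfluramine. The coactivators PPARGC1A and PPARGC1B fell at -1.21 and -1.02, and GABPB1, a subunit of a factor that activates many of these genes, rose at 0.32; DESeq2 called PPARGC1A and PPARGC1B but not GABPB1. After pergolide 0 of the 5 were called by edgeR, 3 had an unadjusted p under 0.05, and DESeq2 called 2, PPARGC1A and PPARGC1B. After serotonin all 3 counts were 0.

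Of 37 genes of the mitochondrial genome, chosen by identifier and not by their values, 26 passed the filter. After serotonin 0 were called by edgeR or DESeq2 and 3 had an unadjusted p under 0.05. By edgeR 12 fell after pergolide, beside 12.7% of tested genes called lower, and 21 after dexfenfluramine, beside 15.4%. On the TMM scale the medians were -0.40, -0.94 and -1.41 after serotonin, pergolide and dexfenfluramine. Those of the 30 nuclear genes were -0.25, -0.34 and -0.72. The score of the 26 correlated with that of the 30 at 0.96 over the deviations of the 20 valves.

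Markers of heart muscle moved with these genes. A marker of any cell type had a symbol only where the study's list of genes called in these valves held it, so the numbers of markers called are not independent of that choice. Of 25 cardiomyocyte markers 14 had a symbol, and none was at 0 in any valve. Their summed level was 144500, 107900, 49910, 153000 and 98450 CPM in non-treated and 53960, 105300, 61150, 98390 and 64360 CPM in serotonin valves. It was 83230, 93130, 93570, 53260 and 48550 CPM in pergolide and 71720, 53120, 12620, 61190 and 72190 CPM in dexfenfluramine valves. The valves low for the 30 genes (non-treated replicate 3, pergolide replicates 4 and 5 and dexfenfluramine replicate 3) were the low valves of their groups here as well. TTN, which encodes titin, had the highest CPM of the 14, with no correction for gene length. Its group means were 74730, 51750, 55040 and 40370 CPM in non-treated, serotonin, pergolide and dexfenfluramine valves. After dexfenfluramine 5 markers fell (TNNT2 at -2.79, TNNC1 at -1.84, FHL2 at -1.48, MYH7 at -1.45 and PLN at -1.24) by edgeR and 9 by DESeq2, all 14 having values below 0, after pergolide 1 (TNNT2 at -2.27) and after serotonin 0 by edgeR or DESeq2, with 2 at an unadjusted p under 0.05.

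Over deviations from group means the score of the 30 correlated with the cardiomyocyte score at 0.93 (Pearson) and 0.91 (Spearman) in 20 valves, and at 0.93 without the 2 valves farthest from the median, non-treated replicate 3 and dexfenfluramine replicate 3. The score of the 30 minus the cardiomyocyte score was -4.75 ± 0.279 (SD), -4.37 ± 0.12, -4.40 ± 0.171 and -4.14 ± 0.724 in non-treated, serotonin, pergolide and dexfenfluramine valves. The dexfenfluramine mean rested on replicate 3, at -2.87, and was -4.46 ± 0.143 without it, below the serotonin and pergolide means. With the cardiomyocyte score as a covariate, the medians of the 30 were 0.09, -0.01 and -0.08 after serotonin, pergolide and dexfenfluramine, with 0, 1 and 1 genes called lower. With 4 surrogate variables from svaseq they were 0.20, 0.06 and 0.00, with 0, 1 and 1 called lower. The study itself looked for unwanted variation with svaseq and RUVr before its calls and does not give the number of variables. The main fit here used none. The covariate fit also takes up any change that the treatments make in cardiomyocyte genes, and whether the surrogate variables do so was not tested. The part of heart muscle content in the result was not tested.

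**Figure D5:**
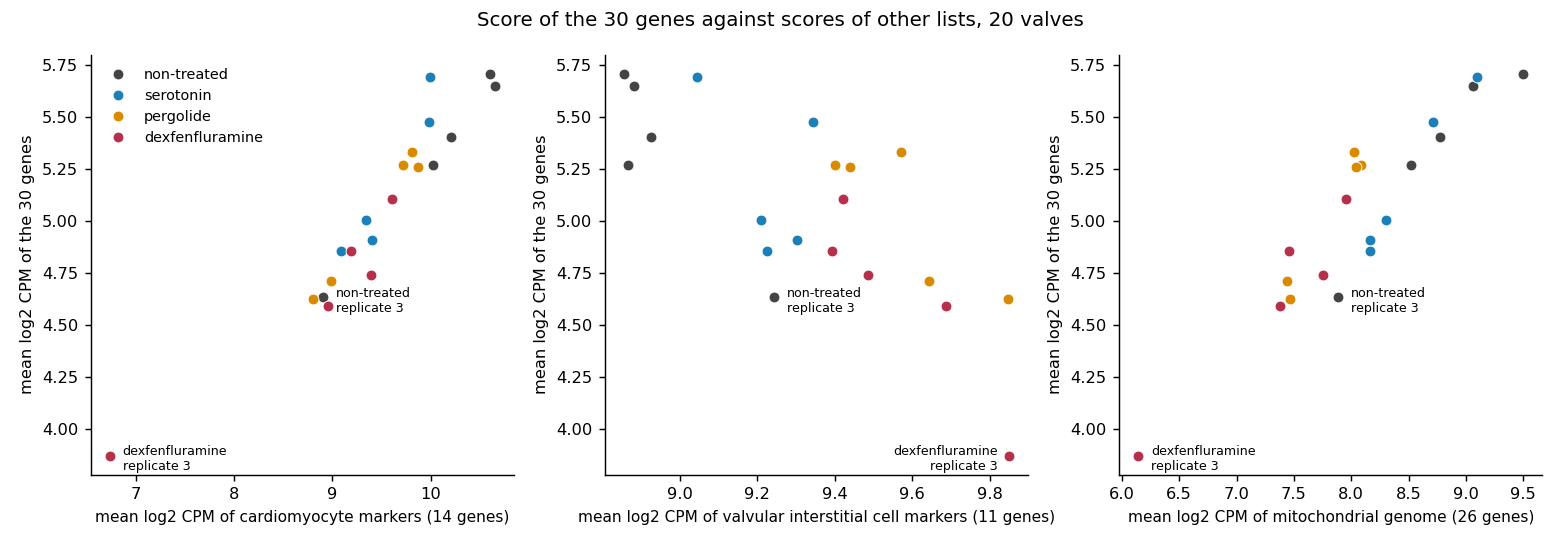
Score of the 30 genes (vertical axis, mean log2 CPM) against the score of 14 cardiomyocyte markers and of 11 valvular interstitial cell markers (horizontal axes, mean log2 CPM); each point is a valve, coloured by group. Dexfenfluramine replicate 3 lies at the low end for cardiomyocyte markers, 6.74, and at the high end for interstitial cell markers, 9.85; scores are on the TMM scale, and with total counts the pergolide median of the 30 turned to 0.14, where that of all genes shifted to 0.46.

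Markers of valvular interstitial cells moved the other way. Of 14 markers 11 had a symbol, and none was at 0. Their summed level was 11050, 10730, 12730, 7884 and 9846 CPM in non-treated and 11850, 9643, 13290, 11610 and 12370 CPM in serotonin valves. It was 12120, 13290, 12180, 15160 and 16110 CPM in pergolide and 13910, 14910, 19750, 12840 and 13560 CPM in dexfenfluramine valves. VIM and VCAN had the highest mean CPM of the 11, with no correction for gene length. After serotonin 1 rose, after pergolide 8 and after dexfenfluramine 7, COL1A1 by the most, at 1.15 after dexfenfluramine. The score of the 30 correlated with theirs at -0.81, and at -0.68 without the 2 valves named for the cardiomyocyte score. Their part in the result was not tested.

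Of 15 adipocyte markers 7 had a symbol and 6 were tested; after pergolide 5 rose. After serotonin and dexfenfluramine 0 were called by edgeR, 4 and 2 had an unadjusted p under 0.05, and DESeq2 called 1 in each, KLB. Their summed level was 63.9, 40.9, 35.5, 99.1 and 40.7 CPM in non-treated and 186, 45.6, 112, 101 and 98 CPM in serotonin valves. It was 249.6, 250.6, 155, 87.6 and 155 CPM in pergolide and 83.9, 132, 5.58, 55.4 and 140.4 CPM in dexfenfluramine valves. ADIPOQ had the highest mean CPM of these markers, with no correction for gene length, and LEP and KLB were at 0 in dexfenfluramine replicate 3. The correlation of their score with that of the 30 was 0.43, and 0.11 without the same 2 valves. Within single groups, too small for a correlation of their own, its sign was negative in serotonin valves and positive in the other groups. Their part in the result was not tested.

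The other marker lists held few genes with a symbol. PECAM1, 1 of 9 endothelial markers, fell after pergolide at -0.74 and stood at -0.32 after dexfenfluramine. Of 9 macrophage markers 2 had a symbol, and C1QA rose after pergolide at 1.45. Of 7 smooth muscle markers 3 had a symbol; MYH11 fell after dexfenfluramine at -1.41 and TAGLN rose after pergolide at 0.99 and after dexfenfluramine at 1.36, while DES was not called. Of 5 Schwann cell markers 2 had a symbol, and S100B fell after pergolide at -0.94. MYH2, 1 of 7 skeletal muscle markers, was not called against non-treated valves by edgeR and was called lower by DESeq2 after pergolide, and 0 of 6 erythroid markers had a symbol. Their part in the values of the 30 was not tested.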

How the data were processed

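Reads per gene were counted by the authors, whose deposited counts carry no normalization: ribosomal RNA was depleted, and reads were aligned to oryCun2 with TopHat and counted with HTSeq. Which annotation release and strand option they used, and how they treated reads with several positions, was not given. All 20 valves entered edgeR 4.0.16 (R 4.3.3; TMM, filterByExpr, quasi-likelihood test, Benjamini-Hochberg threshold 0.05), with each treatment compared with non-treated valves and treatments with one another; 0 columns were left unmapped. Log2 CPM used a prior count of 2. Symbols came from the study's gene list, since no reference at hand paired the identifiers with symbols, so 3524 of 23669 genes had one. The members and lists were chosen with earlier results of these data known. Values by valve were given for the gene of each complex group with the highest mean CPM, those with the lowest and highest dexfenfluramine change, and any called gene above 0. Alternatives were DESeq2 1.42.0, its size factors, upper-quartile scaling, mitochondrially encoded genes left out, no filter, a replicate block, svaseq (sva 3.50.0), the compared groups alone, each valve left out, repaired identifiers and subunits alone. Total-count scaling, both low valves left out and a cardiomyocyte covariate were added after seeing the data. The test was tested on simulated data. Python 3.11.15 with numpy 2.4.6, pandas 2.3.3 and matplotlib 3.10.9 made the lists and plots, and limma was 3.58.1. Counting error limits genes with few reads, and the spread of 5 valves limits the rest.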

Additional observations from a re-analysis of the deposited data

Results flagged for a closer look

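In 156 groups of 5 values (the scores and the genes in each group of valves), a value was singled out where its gap to the nearest valve, over the range of its group, passed the Dixon critical value of 0.71. Chance alone gives about 1 in 20 such groups, and 10 values were found. In dexfenfluramine replicate 3 the complex IV score was 3.22 log2 CPM (nearest valve 4.88), the cardiomyocyte marker score 6.74 (nearest 8.95) and the adipocyte marker score -0.037 (nearest 2.84). In non-treated replicate 3 the valvular interstitial cell score was 9.24 (nearest 8.93), the only value of the 10 that was high. NDUFA4 was low in non-treated replicate 3 at 1.62 log2 CPM (nearest 3.19) and in dexfenfluramine replicate 3 at 2.13 (nearest 3.69). NDUFB5 was 5.05 (nearest 5.93) and COX5B 4.31 (nearest 5.94) in dexfenfluramine replicate 3. COX10 was 3.75 (nearest 4.97) in non-treated replicate 3 and 2.71 (nearest 4.06) in dexfenfluramine replicate 3. All 10 values came from these 2 valves, and the cause was not tested.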

How the results depend on the processing

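Counts are genes called at an adjusted p below 0.05 and medians are log2 fold changes of the 30 genes; a change in a count is named where it passed 1.5 times. For serotonin against non-treated valves edgeR with TMM called 103 genes. DESeq2 called 234, DESeq2 size factors 53, mitochondrially encoded genes left out 37, no filter 48, the replicate block 1, svaseq 244, the 2 groups alone 0, total-count scaling 2, both low valves left out 481 and the cardiomyocyte covariate 189. Leaving out each valve in turn gave 0 to 257. Of the 30 genes 0 were lower after serotonin, and 3 with both low valves left out; the median, -0.25, was 0.20 with svaseq. After pergolide 4 of the 30 were lower. This was 2 with no filter, 2 with the replicate block, 1 with svaseq, 0 with total-count scaling, 12 with both low valves left out, 1 with the covariate, 2 with subunits alone and 1 to 7 with each valve left out. The median was 0.14 with total-count scaling. After dexfenfluramine 2510 genes were called, and 1502 with svaseq, 5101 with total-count scaling and 1604 with the covariate. Of the 30, 15 were lower, and 1 with svaseq, 3 with total-count scaling, 1 with the covariate and 8 to 24 with each valve left out; the medians in these 3 fits were 0.00, -0.012 and -0.077. Log2 fold changes of called genes turned positive with svaseq for NDUFA2 at 0.02, NDUFAB1 at 0.009, COX10 at 0.015 and UQCRQ at 0.026, and with total-count scaling for NDUFA2 at 0.037, ATP5F1 at 0.12 and NDUFS5 at 0.16. For pergolide against serotonin 2389 genes were called, and 1592 with total-count scaling; of the 30, 3 were lower, and 6 with svaseq, 1 with total-count scaling, 5 with both low valves left out and 7 with the covariate. For dexfenfluramine against serotonin 11 of the 30 were lower, and 7 with svaseq, 2 with total-count scaling (median 0.024), 7 with the covariate and 6 to 13 with each valve left out. Between the drugs 0 genes were called, and 4 with DESeq2. The replicate block called 1988 genes after pergolide and 2365 after dexfenfluramine. The numbers do not pair valves across groups: the median correlation of valves with the same number was -0.02, and 3 of 20 valves correlated best with one of their own number. Upper-quartile scaling and the repaired identifiers moved no count past 1.5 times. The cause of the changes was not tested. A list by reference symbol and promoter motifs were not run, since no reference at hand paired the identifiers with symbols or held sequences.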

Other observations

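Within groups the scores of the complexes varied together across the 20 valves: the score of the 30 genes correlated over deviations from group means at 0.98 with complex III, 0.97 with complex IV, 0.99 with complex V and 0.95 with the assembly factors and ATP5S, each of which is part of that score.

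Of the symbol entries in the study's list, 2959 matched the count table as written, 567 matched after a repaired identifier and 273 stayed unmatched. Among the unmatched identifiers, 3 belonged to symbols with a prefix used here.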
